A study of Mus musculus with 2 samples.

Results

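Among mesenchymal cells of the metastatic niche in mouse lung, a set of 182 barcodes carried high transcript counts of Cxcl9, a chemokine induced by interferon gamma, and Timp1, an inhibitor of metalloproteinases. A member had at least 500 detected genes, at most 10% mitochondrial unique molecular identifiers (UMIs, 1 per captured transcript), at least 3 UMIs over Col1a1, Col1a2, Col3a1, Mfap4 and Bgn, more of these than of the endothelial genes Pecam1, Cdh5, Cldn5, Egfl7 and Ramp2, and at least 10 UMIs of Cxcl9 and Timp1 together. The members were 182 of 793 niche mesenchymal barcodes (23%, exact 95% interval 20.1% to 26.0%), of 1423 niche barcodes that passed the filters and of 3410 in both libraries. They were set against the other 611 niche mesenchymal barcodes and against 373 distal mesenchymal barcodes chosen by the same collagen and endothelial counts. No distal mesenchymal barcode met the full rule, and the exact 95% interval of 0 in 373 reaches 0.984%. Distal mesenchymal barcodes were shallower (median of 2153 UMIs against 5300.5 per member), and this count was not adjusted for depth.

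Both libraries came from mouse lung on day 7 after Labelling-4T1 cells were given into the vein, and both were labelled CD45-, so cells with the leukocyte surface protein CD45 had been sorted out. The 4T1 line comes from a mouse mammary carcinoma and forms lung metastases, and its labelling form passes a fluorescent protein to nearby cells. The niche library held niche cells and the distal library held distal lung cells of lungs that carried the same tumour cells. The labels give neither the mouse strain and age, nor the number of pooled lungs, nor the gate that parted niche from distal cells. No tumour-free lung was compared here. With 1 library per group there was no replicate, and all intervals cover counting error only.

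Fibroblasts make and hold the collagenous matrix of the lung, and those around alveoli (alveolar fibroblasts) and around large vessels and airways (adventitial fibroblasts) have different marker genes. In inflamed tissue, fibroblasts can answer interferons, through the STAT factors, and cytokines such as TNF and IL-1, through NF-kB. They then make chemokines that draw monocytes and T cells, complement and acute phase proteins, and the machinery that shows peptides on MHC molecules.

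The depth of members was higher than that of the barcodes they were compared with. The median was 5300.5 UMIs per member (1373 to 9784), 3282 per other niche mesenchymal barcode (1322 to 9703) and 2153 per distal mesenchymal barcode (853 to 6954). The sums were 988003, 2302789 and 897947 UMIs. Malat1, a nuclear RNA whose loss can mark poor droplets, took a median of 2.09% of UMIs in members, 3.03% in the other niche mesenchymal barcodes and 4.99% in distal ones, and mitochondrial genes took 2.45% in members against 2.68% in the other niche mesenchymal barcodes. Of the members, 3 had a barcode sequence that also occurred in the distal table, out of 7 sequences in both tables. The rule counts UMIs without regard to depth, so deep barcodes could meet it more readily: a limit of 3 Cxcl9 and Timp1 UMIs per 1000 chose 155 members, and 284 of the 373 genes it called higher were among the 362 given below. Of the 737 genes it called lower, 507 were among the 689 given below. With barcodes thinned to 1500 UMIs and 8344 genes then measured, 209 of 326 genes called higher and 270 of 463 called lower were among those given below.

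Because Cxcl9 and Timp1 chose the members, their levels are given only to describe the choice. At least 10 UMIs of Cxcl9 alone were present in 99 members and of Timp1 alone in 106, and 43 had both. Cxcl9 was the more abundant of the pair in 94 members and Timp1 in 86, and they were equal in 2. No Cxcl9 was counted in 36 members and no Timp1 in 5. Across the limit, the 25 members with 10 to 12 UMIs had 5434 CPM (UMIs per 1000000 UMIs of the set) of Ccl2, 9870 CPM of Cxcl10 and 148 CPM of Cfb, against 1722, 3771 and 166 CPM in the 40 barcodes with 7 to 9 UMIs. The median depth was 3628 UMIs in these 25 members and 5452 UMIs in these 40 barcodes, so they were not matched for depth. Outside the mesenchymal class, 16 of 502 niche endothelial barcodes (3.19%) and 6 of 1987 distal barcodes of any kind (0.302%) had 10 or more UMIs of the pair.

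Levels were compared as UMIs summed over all members and over all other niche mesenchymal barcodes, scaled to 1000000, and given as a log2 ratio of members over the others with its exact 95% counting interval. A gene was counted as higher or lower when the ratio was at least 2-fold and the interval excluded equality. Of 10361 genes with at least 10 UMIs, 362 (3.49%) were higher and 689 (6.65%) were lower in members. The median log2 ratio of all genes was -0.11. Of the genes past the threshold, 34.4% were higher, and 45.7% were higher when ratios were centred on that median.

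Promoters of 4 of the genes highest in members are printed because a short motif of an interferon or NF-kB response element was found in them. They run from 250 bases before to 50 bases after the annotated start in RefSeq (GRCm38.p6), 5′ to 3′ on the gene's strand. Capitals mark the matches: GAAANNGAA, the core of the interferon-stimulated response element bound by interferon-activated factors, TTCNNNGAA, the gamma-activated site of interferon gamma responses, and GGANNTTCC, the core of an NF-kB site, all searched on both strands.
Cxcl10: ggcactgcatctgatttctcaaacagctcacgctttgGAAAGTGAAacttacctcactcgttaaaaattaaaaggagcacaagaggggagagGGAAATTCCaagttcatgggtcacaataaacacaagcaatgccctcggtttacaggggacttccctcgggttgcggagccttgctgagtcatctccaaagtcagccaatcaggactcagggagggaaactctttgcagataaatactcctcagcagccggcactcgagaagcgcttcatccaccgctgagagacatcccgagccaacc
Rsad2: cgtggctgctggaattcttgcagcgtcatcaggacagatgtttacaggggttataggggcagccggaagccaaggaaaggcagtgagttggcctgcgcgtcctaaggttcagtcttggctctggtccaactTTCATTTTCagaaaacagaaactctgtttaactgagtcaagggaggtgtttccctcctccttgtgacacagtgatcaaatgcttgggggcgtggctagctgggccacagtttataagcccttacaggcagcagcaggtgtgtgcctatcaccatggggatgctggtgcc
Saa3: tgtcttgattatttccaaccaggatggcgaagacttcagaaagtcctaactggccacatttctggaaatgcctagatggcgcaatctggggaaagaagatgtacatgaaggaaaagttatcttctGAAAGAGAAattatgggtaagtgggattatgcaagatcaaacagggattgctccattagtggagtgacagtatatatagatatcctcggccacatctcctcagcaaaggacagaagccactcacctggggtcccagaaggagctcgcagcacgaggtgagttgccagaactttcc
Serpina3g: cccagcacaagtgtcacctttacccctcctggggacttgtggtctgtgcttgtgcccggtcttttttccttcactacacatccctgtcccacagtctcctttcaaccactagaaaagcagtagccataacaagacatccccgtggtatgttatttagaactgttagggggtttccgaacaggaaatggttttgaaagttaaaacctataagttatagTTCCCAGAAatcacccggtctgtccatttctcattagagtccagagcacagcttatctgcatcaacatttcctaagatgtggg

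The Cxcl10 promoter (chr5:92348840-92349139, minus strand) held GAAAGTGAA starting 213 bases before the start site and GGAAATTCC starting 158 bases before it. The Rsad2 promoter (chr12:26456403-26456702, minus strand) held the first motif on its other strand, 119 bases before the start. The Saa3 promoter (chr7:46715627-46715926, minus strand) held it 125 bases before the start. The Serpina3g promoter (chr12:104235897-104236196, plus strand) held TTCCCAGAA, the gamma-activated site pattern, 33 bases before the start. No match in these windows overlapped another. Of the 15 genes highest in members, 9 had a promoter in the table. The interferon-stimulated response element core was in 4 of them (Cxcl10, Rsad2, Saa3 and Spp1), the gamma-activated site in 2 (Serpina3g and Ifi202b) and the NF-kB core in 1 (Cxcl10).

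Over all genes higher in members, 258 of 362 had a promoter in the table, and 58 of these (22.5%) held the interferon-stimulated response element core, 40 (15.5%) the gamma-activated site and 27 (10.5%) the NF-kB core. Over all genes compared with a promoter in the table (7941), the shares were 8.92%, 8.16% and 5.57%. Genes lower in members held them in 8.40%, 7.03% and 3.91% of 512 promoters, close to the shares over all genes compared. In the whole RefSeq table of 27025 genes the shares were 9.76%, 9.55% and 4.86%. A match describes the letters only and does not show that a factor binds there.

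Chemokines, secreted proteins that guide leukocytes, were higher in members for the most part. Of 17 measured chemokine genes, 9 were higher and 1 (Ccl27a) was lower in members, with a median log2 ratio of 1.04. Cxcl10, which draws T cells through the receptor CXCR3, lies on chr5:92346638-92348889. It had between 0 and 37090 CPM per member with a median of 6696 CPM, against 0 to 30620 CPM with a median of 0 in the other niche mesenchymal barcodes. The ranges overlapped, and 164 of 182 members had at least 1 UMI. Summed Cxcl10 was 9141 CPM in members, against 1992 CPM in the other niche mesenchymal barcodes (log2 ratio 2.20, 2.15 to 2.25), 596 CPM in niche endothelial barcodes and 133 CPM in distal mesenchymal barcodes.

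The monocyte-attracting chemokines Ccl2 and Ccl7 are neighbours on chromosome 11, at chr11:82035571-82037453 and chr11:82045712-82047525. Ccl2 ran from 0 to 26913 CPM per member with a median of 1262 CPM, against 0 to 40771 CPM with a median of 0 in the other niche mesenchymal barcodes, so the highest single value lay outside the members. Its sum was 4368 CPM in members, against 1033 CPM in the others (log2 ratio 2.08, 2.01 to 2.15) and 338 CPM in distal mesenchymal barcodes. Ccl7 had 1971 CPM in members, against 575 CPM in the others (1.78, 1.67 to 1.88) and 108 CPM in distal mesenchymal barcodes. Ccl2 was counted in 138 members and Ccl7 in 119.

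Ccl5, which draws T cells and monocytes, showed a large ratio from fewer barcodes. It had 961 CPM in members, against 41.7 CPM in the others (log2 ratio 4.52, 4.22 to 4.84) and 174 CPM in niche endothelial barcodes, and it was counted in 67 members. Ccl5 is also a marker of T and NK cells. It was the only gene of a 10-gene lymphocyte list that was measured in this comparison, and the pan-leukocyte gene Ptprc stood at 2.02 CPM in members against 3.47 CPM in the others. A single member had 18795 CPM of the lymphocyte list, which equals the highest Ccl5 value of members. That member also had 4272 CPM of macrophage and 6835 CPM of pan-fibroblast markers. Without the 18 barcodes of its cluster, Ccl5 was at 918 CPM in members against 36.9 CPM in the others. Which cells Ccl5 came from was not tested. Cxcl16, a membrane-bound ligand of CXCR6, was counted in 144 members at 423 CPM, against 124 CPM in the others (1.77, 1.55 to 1.99). Cxcl13, which draws B cells, was counted in 19 members at 136 CPM against 8.69 CPM in the others (3.93, 3.28 to 4.72), with 50% of its UMIs in a single member.

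The other chemokines went in different directions. Ccl19 (log2 ratio 1.38), Cxcl14 (1.04) and Cxcl5 (1.14) were higher in members, although Cxcl5 turned to -0.26 without barcodes of low Malat1. Cxcl1, a neutrophil chemokine, was at 1287 CPM in members against 1260 CPM in the others, a log2 ratio of 0.03. Cxcl12, made by resident stroma to hold CXCR4-bearing cells, was at 242 CPM in members against 393 CPM in the others (-0.70), and Ccl21a was at 60.7 CPM against 114 CPM (-0.90). The Cxcl1, Cxcl12 and Ccl21a ratios were under 2-fold.

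**Figure D1:**
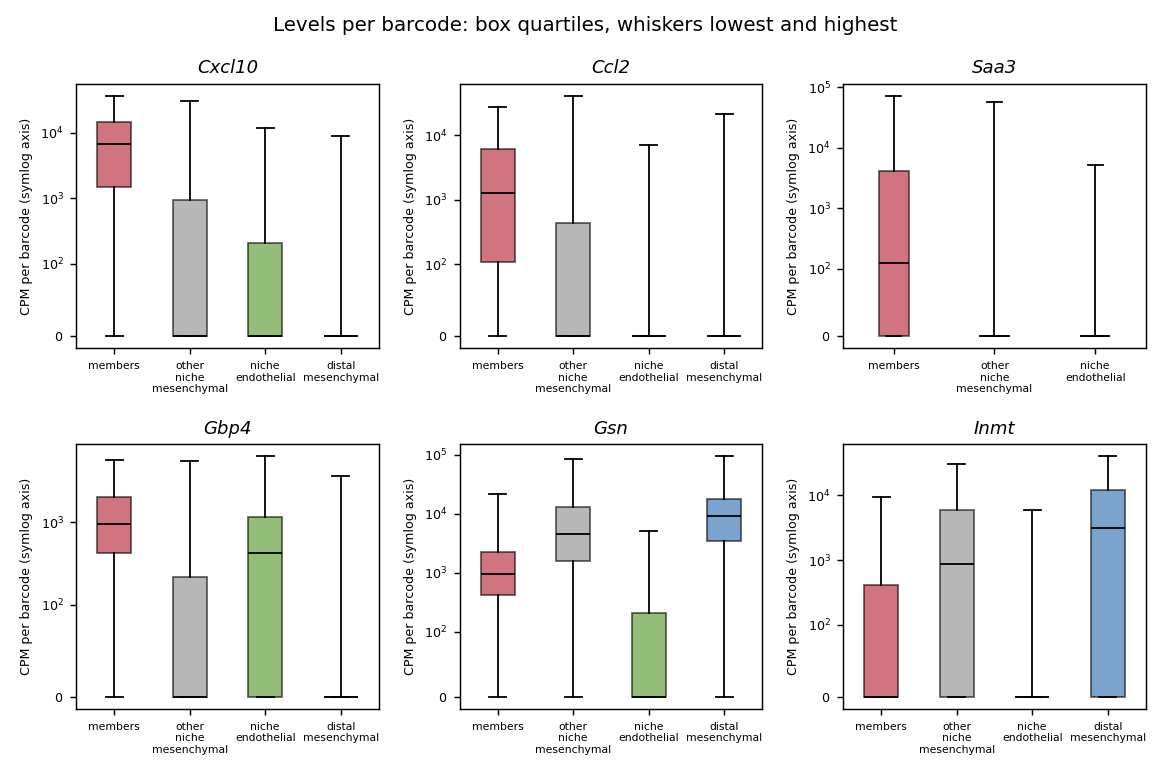
CPM per barcode on a symmetric log axis (linear below 100) for 6 genes in members, other niche mesenchymal, niche endothelial and distal mesenchymal barcodes; boxes are quartiles with the median, whiskers the lowest and highest barcode. The member median of Cxcl10 was 6696 CPM while that of the other niche mesenchymal barcodes was 0, and Gsn ran the other way. Saa3 was not in the distal table.

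Shares of barcodes with at least 1 UMI were compared after each barcode was thinned to 1500 UMIs, which left 180 members, 573 other niche mesenchymal, 460 niche endothelial and 291 distal mesenchymal barcodes. Cxcl10 was then present in 81.7% of members, 35.6% of the others, 18.7% of endothelial barcodes and 7.56% of distal mesenchymal barcodes. Ccl2 was present in 62.8% of members, 24.8% of the others, 4.57% of endothelial and 8.25% of distal mesenchymal barcodes. Ccl5 was present in 26.1% of members, 2.79% of the others and 3.04% of endothelial barcodes. The shares of Ccl5 in the other niche mesenchymal and in the endothelial barcodes were thus alike and low, whereas the members stood above both. Before thinning, the median endothelial depth was 2355.5 UMIs, and Ccl5 was counted in 67 of 182 members and 32 of 611 others.

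Acute phase genes, the liver's secreted response to inflammation that stromal cells also make, were high in a subset of members. Of 9 measured, 5 were higher and 1 (Ptx3) was lower, with a median log2 ratio of 2.08. Saa3, a serum amyloid A protein, ran from 0 to 72142 CPM per member with a median of 128 CPM, and the other niche mesenchymal barcodes had a median of 0 and a maximum of 55775 CPM. Its sum was 4221 CPM in members, against 690 CPM in the others (log2 ratio 2.61, 2.53 to 2.70), with UMIs in 101 members. Lcn2, which binds bacterial siderophores, had 413 CPM in members, against 69.9 CPM in the others (2.56, 2.30 to 2.83), from 45 members. Hp, the haemoglobin-binding protein haptoglobin, had 445 CPM against 105 CPM (2.08, 1.85 to 2.32), from 36 members. The list also counted Serpina3g, which is an intracellular serpin and not a secreted protein. Serpina3g had 599 CPM in members, against 114 CPM in the others (2.39, 2.18 to 2.61) and 880 CPM in niche endothelial barcodes. Its endothelial sum was thus above that of the members.

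Complement, the plasma cascade that tags and lyses targets, had genes past the threshold in both directions. Over all genes, 3.49% were higher and 6.65% lower. Of 11 measured genes, 2 were higher and 1 (Cd55, a brake on complement, with 1 UMI in members) was lower, and the median log2 ratio was 0.44. The pair that were higher are neighbours on chromosome 17: Cfb (chr17:34856374-34862518), factor B of the alternative pathway, and C2 (chr17:34862604-34898265), the corresponding protease of the classical pathway. Cfb had 440 CPM in members, against 115 CPM in the others (1.94, 1.72 to 2.17), 19.1 CPM in endothelial and 43.5 CPM in distal mesenchymal barcodes. It was counted in 86 members, so its median per member was 0, and its highest value was 7745 CPM. C2 had 277 CPM in members against 112 CPM in the others (1.30, 1.05 to 1.55). C3, the hub of all complement pathways, was at 1426 CPM in members against 801 CPM in the others (0.83), under 2-fold.

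Interferon-induced genes were higher in members across most of their list. Of 43 measured antiviral genes, 31 were higher in members and 1 (Ifi27) was lower, with a median log2 ratio of 1.30. Rsad2 (viperin, which blocks viral RNA synthesis) had 320 CPM in members, against 30.4 CPM in the others (3.39, 3.02 to 3.79) and no UMI in distal mesenchymal barcodes, but only 29 members carried it and 20.9% of its UMIs were in a single member. Ubd, a ubiquitin-like protein induced by interferon gamma and TNF, had 340 CPM in members, against 13.5 CPM in the others (4.64, 4.13 to 5.24), 422 CPM in niche endothelial barcodes and 1.12 CPM in distal mesenchymal barcodes, from 49 members. Broader members of the list were Isg15, a ubiquitin-like modifier, with 1126 CPM in members against 486 CPM in the others (1.21), and Bst2 (tetherin), with 1593 CPM against 583 CPM (1.45), counted in 142 and 174 members.

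The interferon-inducible GTPases, which attack vacuoles of intracellular pathogens, were higher nearly throughout. Of 16 measured genes of the guanylate-binding (GBP) and immunity-related (IRG) families, 15 were higher and none was lower, with a median of 1.45, and Gbp7 was the exception at 0.96. Gbp4 had a median of 949 CPM per member (0 to 5651 CPM), against a median of 0 in the others (0 to 5438 CPM), and 1329 CPM in the sum of members against 275 CPM in the others (2.27, 2.13 to 2.41). In niche endothelial barcodes Gbp4 stood at 830 CPM. Gbp6 (2.36), Gbp8 (2.81), Tgtp1 (2.43) and Tgtp2 (1.87) were also higher, but these are near copies of their neighbours, and the annotated spans of Gbp4 and Gbp8 overlap, so reads may be split among them.

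Antigen presentation on MHC class I followed the interferon genes. Of 16 measured genes, 10 were higher and none lower (median 1.14). B2m, the light chain of class I, had 11486 CPM in members against 5271 CPM in the others (1.12, 1.09 to 1.16) and was counted in all 182 members. The peptide transporter genes Tap1 (466 against 145 CPM, 1.69) and Tap2 (507 against 176 CPM, 1.53) were higher in members, as were the immunoproteasome subunits Psmb8 (998 against 460 CPM, 1.12) and Psmb9 (459 against 198 CPM, 1.21). Of 6 immunoproteasome genes, 3 were higher. Of 7 class II genes, none was higher and 1 (the protease Ctss) was lower, with a median of 0.64. Without a cluster of 18 barcodes led by the surfactant gene Sftpc and the platelet gene Pf4, which held 1 member, all 6 class II genes then measured were higher in members, with a median of 1.48.

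**Figure D2:**
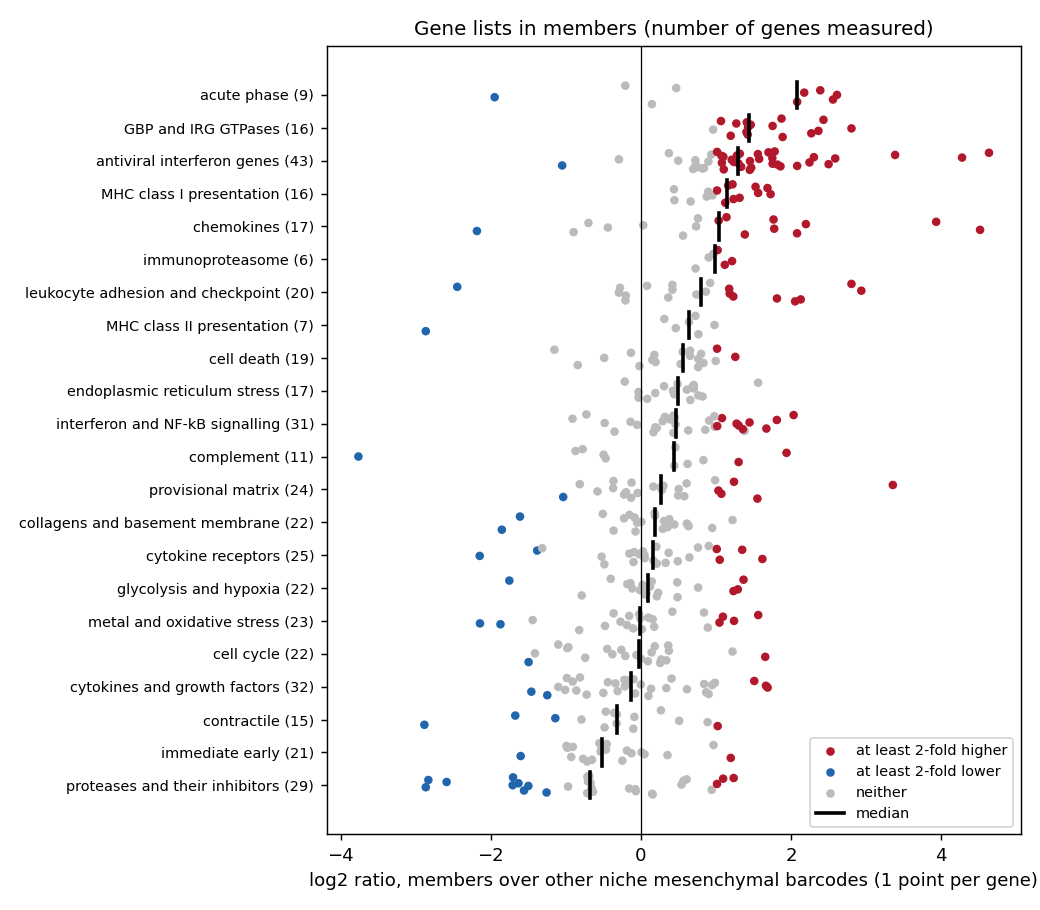
The log2 ratio of members over other niche mesenchymal barcodes for each gene of 22 lists (1 point per gene, red and blue for genes at least 2-fold higher or lower with an interval excluding equality, black bars for medians, number of genes measured in brackets). Acute phase (median 2.08), GBP and IRG (1.45) and antiviral genes (1.30) lie to the right, and proteases and their inhibitors (-0.67) to the left.

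Among signalling genes, 9 of 31 were higher in members and none lower (median 0.46). Among them were the interferon factors Irf7 (1.36), Irf8 (1.67) and Nlrc5 (1.45), the cytokine brake Socs1 (1.81), and the NF-kB genes Nfkb1 (1.02), Nfkb2 (1.30), Nfkbie (1.27) and Tnip1 (2.03). Socs1 had 470 CPM in members against 134 CPM in the others. Of 20 adhesion and checkpoint genes, 8 were higher and 1 (Ptgs1) lower (median 0.80). Cd274, which encodes the T cell checkpoint ligand PD-L1, had 132 CPM in members against 29.96 CPM in the others (2.13, 1.70 to 2.58), and Cd40, a receptor for T cell help, had 156 against 44.3 CPM (1.81). Icam1, a leukocyte adhesion molecule, had 419 against 178 CPM (1.23).

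Cytokines and growth factors showed no common direction, with 3 of 32 higher, 2 lower and a median of -0.13. The shares over all genes were 3.49% higher and 6.65% lower. Il15, which sustains T and NK cells, was higher (1.69), as were its receptor chain Il15ra (1.62) and Il34 (1.67), a ligand of the macrophage receptor CSF1R. Il6 was at 1120 CPM in members against 581 CPM in the others, a log2 ratio of 0.95 that did not reach 2-fold. Fgf10 (-1.46) and Bmp4 (-1.25), growth factors of the alveolar stroma, were lower. Of 25 cytokine receptors, 4 were higher and 2 lower (median 0.17).

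Matrix genes gave a mixed picture, to be read against the shares over all genes, 3.49% higher and 6.65% lower. Of 22 collagen and basement membrane genes, none was higher and 2 (Col14a1 at -1.85 and Lama2 at -1.61) were lower, with a median of 0.19. Of 24 genes of provisional and remodelled matrix, 5 were higher and 1 lower (median 0.27): Tnc, the wound matrix protein tenascin C, had 229 CPM in members against 96.8 CPM in the others (1.24), and Cd44, the hyaluronan receptor, 359 against 122 CPM (1.55). Spp1, the secreted phosphoprotein osteopontin, had 331 against 32.1 CPM (3.36, 3.00 to 3.75), but from 22 members with 34.3% of UMIs in a single member, and without barcodes of low Malat1 its ratio was -0.56. Fst (follistatin, which binds activin) had 516 against 109 CPM (2.24, 2.02 to 2.47), from 66 members. Of 29 proteases and inhibitors, 3 were higher, with Serpine2 (1.24) and Mmp19 (1.01) among them, and 9 lower, including the metalloproteinases Mmp2 (-1.63) and Mmp3 (-2.59), with a median of -0.67.

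Stress and metabolic lists are given next, to be read against the shares over all genes, 3.49% higher and 6.65% lower. Of 23 metal and oxidative stress genes, 4 were higher and 2 lower (median -0.01): Mt2, a metallothionein that binds zinc, had 5292 CPM in members against 2239 CPM in the others (1.24), Sod2, the mitochondrial superoxide dismutase, 1106 against 374 CPM (1.56), whereas Gstm1 was lower at 144 against 638 CPM (-2.14). Immediate early genes, which tissue dissociation can induce, had 1 of 21 higher and 1 lower (median -0.52). Endoplasmic reticulum stress genes had none of 17 past the threshold (median 0.49). Cell death genes had 2 of 19 higher (median 0.56), contractile genes 1 of 15 higher and 3 lower (-0.32), glycolysis and hypoxia genes 3 of 22 higher and 1 lower (0.09), and cell cycle genes 1 of 22 higher and 1 lower (-0.03).

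Marker genes of lung fibroblast subtypes were lower in members, where 6.65% of all genes were lower. Of 13 alveolar fibroblast markers, 7 were lower and none higher (median -1.25), and of 12 adventitial markers, 7 were lower and none higher (median -1.66). Gsn, an actin-severing protein abundant in lung fibroblasts, ran from 0 to 21461 CPM per member with a median of 953 CPM, against 0 to 84922 CPM with a median of 4534 CPM in the others. Its sum was 1886 CPM in members, against 9404 CPM in the others (-2.32, -2.39 to -2.25) and 15181 CPM in distal mesenchymal barcodes. Inmt, an amine methyltransferase of alveolar fibroblasts, had 510 CPM in members against 3302 CPM in the others (-2.69, -2.83 to -2.56), and the alveolar fibroblast transcription factor Tcf21 64.8 against 307 CPM (-2.23, -2.64 to -1.87). The adventitial genes Clec3b (228 against 1382 CPM, -2.60), Pi16 (77.9 against 446 CPM, -2.51) and Cd34 (23.3 against 159 CPM, -2.74) were lower as well.

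Markers shared by fibroblasts, other than the 5 genes in the rule, were at a similar summed level. The 15 markers summed to 27066 CPM in members and 28832 CPM in the others, with 4 lower (Gsn, Dcn, Fbln1 and Serpinf1), none higher and a median of -0.05. Single log2 ratios ran from -2.32 to 0.81, so the similar sum held shifts in both directions. Sparc had 4137 CPM in members against 3359 CPM in the others (0.30), Pdgfra 138 against 184 CPM (-0.42) and Col6a1 421 against 436 CPM (-0.05). Over all members, the label of fibroblasts thus rested on the summed level of these shared genes, while the alveolar and adventitial lists were lower. Over all genes, 3.49% were higher and 6.65% lower in members. Of 11 pericyte markers 2 were lower and none higher (439 CPM summed in members against 554 CPM), of 8 smooth muscle markers 3 were lower and none higher (2314 against 2794 CPM), and of 11 alveolar myofibroblast markers 1 was lower and none higher (1398 against 2093 CPM). These sums were uneven among members when niche mesenchymal barcodes were clustered without Cxcl9 and Timp1. The 32 members in cluster 3 had 4361 CPM of alveolar myofibroblast and 4913 CPM of smooth muscle markers, where the 69 members in cluster 1 had 437 and 937 CPM. The 7 members in cluster 5 had 3546 and 8127 CPM of the same lists. Pan-fibroblast markers summed to 22865, 20861 and 30629 CPM in the members of clusters 3, 1 and 5. They summed to 31701 CPM in the 26 members of cluster 4 and to 49642 CPM in the 32 members of cluster 2. The barcodes of cluster 2 had a median Malat1 share of 0.05%, and the part of this cluster in the summed level was not tested. The 4 members in cluster 7, which was led by the pericyte markers Cox4i2, Pdzd2 and Gucy1a3, had 6912 CPM of pericyte and 4831 CPM of pan-fibroblast markers, so the label of fibroblasts was not borne by these.

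Markers of cells outside the mesenchyme were low, with exceptions. Their counts are to be read against 3.49% of all genes higher and 6.65% lower in members. The 12 endothelial markers not used by the rule summed to 356 CPM in members and 274 CPM in the others, with Car4 and Flt1 higher, from 14 and 5 members. Of 7 macrophage genes, 2 were lower (82.0 CPM summed in members against 279 CPM). This rested on the 18 barcodes led by Sftpc and Pf4: without them, none of 5 genes then measured passed the threshold (67.0 CPM summed in members against 75.2 CPM). Of 10 alveolar type 2 genes, 8 were lower (188 against 2381 CPM), but without the same 18 barcodes 1 of 5 was lower (Abca3), and the ratios of Sftpc and Sftpa1 turned to 0.16 and 0.08. The airway gene Scgb1a1 had 1646 CPM in members against 419 CPM in the others, and 75% of the member UMIs were in a single barcode, without which, and without the highest of the other barcodes, its log2 ratio was -0.01. Of 7 keratin-positive epithelial genes 5 were lower (18.2 CPM summed in members against 120 CPM), but without the 18 barcodes none of 3 then measured was (10.1 against 15.8 CPM). With all barcodes, 1 gene each was lower among 3 alveolar type 1, 2 mesothelial, 4 lymphatic and 5 erythroid and platelet markers, while 1 glial marker did not pass the threshold and no neutrophil marker was measured. Without the 18 barcodes, none of the alveolar type 1 or of the erythroid and platelet markers was lower. The part of other cells' RNA in the member levels was not tested.

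**Figure D3:**
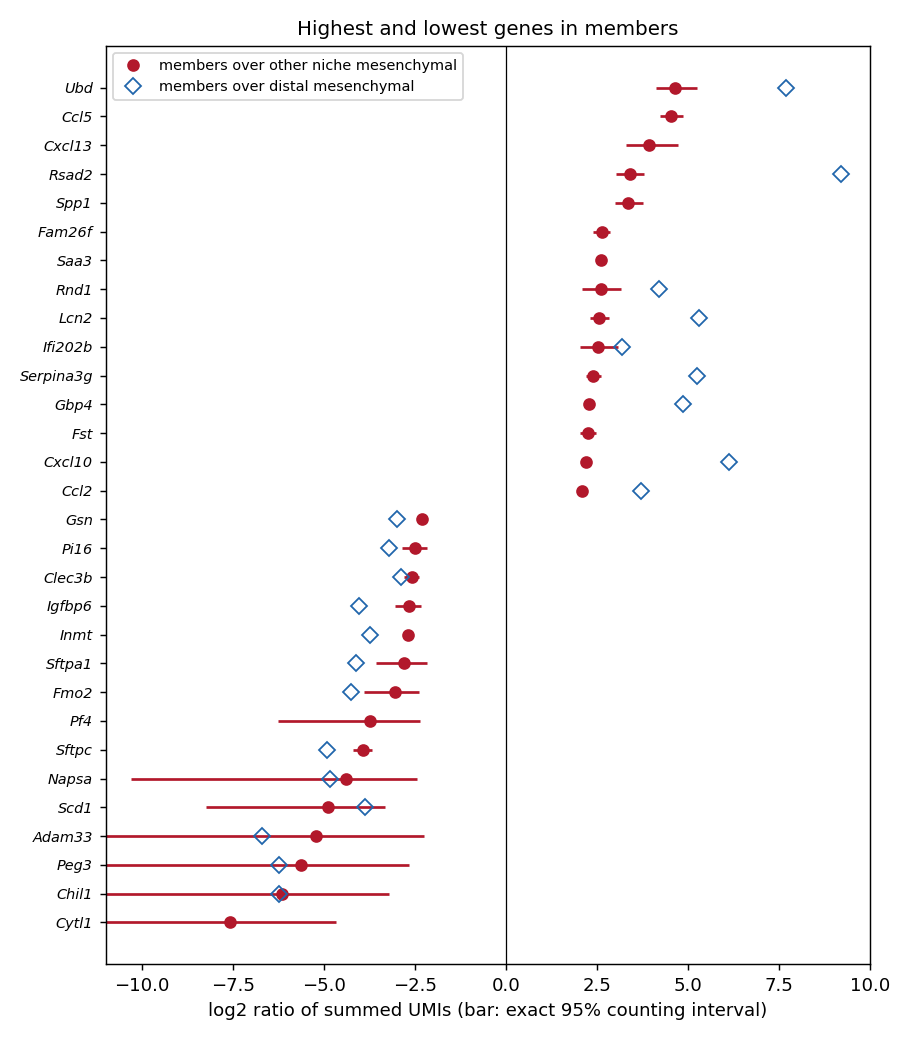
Log2 ratios of the 15 genes highest and the 15 lowest in members, taken in order of the end of the interval closest to 0 (genes of at least 30 UMIs): members over other niche mesenchymal barcodes (circles, bars are exact 95% counting intervals, cut at -11 where members had no UMI) and members over distal mesenchymal barcodes (diamonds, for genes in both tables). Points have 0.5 UMI added to each sum, so those of genes without UMIs on either side (Rsad2 in distal, Cytl1, Chil1, Peg3 and Adam33 in members) are no bounds. Among the circles, Ubd lies highest at 4.64. Without the 18 barcodes of the cluster led by Sftpc and Pf4, the ratios of Sftpc and Sftpa1 were 0.16 and 0.08.

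At the low end, 4 genes had no UMI in members. With 3 UMIs over all members in place of 0, Cytl1 was at least 31.9-fold lower, Chil1 at least 11.7-fold lower, Peg3 at least 8.15-fold lower and Adam33 at least 6.15-fold lower in members. A single barcode held 57.8% of the Cytl1 UMIs and 68.3% of the Chil1 UMIs of the other niche mesenchymal barcodes. Peg3 and Adam33 were spread over 42 and 34 of them. Pf4, also among the 15 lowest, had 97.2% of the UMIs of the other barcodes in a single barcode. The alveolar type 2 genes Sftpc, Sftpa1 and Napsa were also among the 15 lowest, as was Scd1, a fatty acid desaturase with 40.4% of the others' UMIs in a single barcode. Scd1 was a leading gene of the cluster of 18 barcodes led by Sftpc and Pf4. Without that cluster, Sftpc and Sftpa1 were at 0.16 and 0.08, and Abca3 alone of 5 alveolar type 2 genes then measured was lower.

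Set against the distal mesenchymal barcodes, 588 of 9335 genes in both tables (6.3%) were higher and 1307 (14%) lower in members, with a median of -0.20. Of the genes past the threshold, 31.0% were higher, and 45.4% were higher when ratios were centred on that median. Both the library and the rule separate these sets and cannot be told apart, and the comparisons share the members. The GBP and IRG genes had a median of 3.37 (15 of 15 higher) in members over distal barcodes, and 1.49 (13 of 15 higher) in the other niche mesenchymal over the same distal barcodes. Over all 9886 genes of that second comparison, 241 (2.44%) were higher and 483 (4.89%) lower. Antiviral genes had medians of 2.63 (34 of 40 higher) and 1.22 (20 of 40), and MHC class I genes 2.01 (13 of 16) and 0.78 (5 of 16), in the same order of sets. All 6 measured class II genes were higher over distal barcodes in members (median 2.30) and in the other niche mesenchymal barcodes (1.68). Without the 18 barcodes led by Sftpc and Pf4, the members kept 6 of 6 higher (2.30), whereas 2 of 6 were higher in the other niche mesenchymal barcodes (0.78).

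For the genes named next, the other niche mesenchymal barcodes lay between members and distal barcodes. Cxcl10 had 9141, 1992 and 133 CPM in members, other niche mesenchymal and distal mesenchymal barcodes. Ccl2 had 4368, 1033 and 338 CPM, Cfb 440, 115 and 43.5 CPM, and Gbp4 1329, 275 and 45.8 CPM in the same sets. Inmt had 510, 3302 and 6909 CPM and Tcf21 64.8, 307 and 983 CPM, the opposite order. Alveolar fibroblast markers summed to 1798 CPM in members and 11982 CPM in distal barcodes over the genes in both tables, with 12 of 13 lower in members. Saa3, Ccl5, Spp1 and Fst were absent from the distal table, which lists only genes above a minimum total, so no distal value was given for them.

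The members were not uniform. The 94 with more Cxcl9 than Timp1 UMIs were compared with the 86 with more Timp1, and of 7457 genes 208 (2.79%) were higher and 160 (2.15%) lower in the Cxcl9-leading members. The genes that chose the members also formed these groups, within 1 library. The differences between them are therefore a description of the members and not a test. Of 6 MHC class II genes, 5 were higher in the Cxcl9-leading members, with a median log2 ratio of 1.53. Cd74, the class II invariant chain, had 1458 CPM in Cxcl9-leading against 298 CPM in Timp1-leading members (2.29, 2.03 to 2.56), H2-Ab1 473 against 159 CPM (1.57) and H2-Eb1 236 against 61.0 CPM (1.94). Ubd had 565 against 91.4 CPM (2.61, 2.16 to 3.13), Ccl5 1439 against 435 CPM (1.72, 1.5 to 1.96) and Fst 811 against 192 CPM (2.08, 1.75 to 2.43). The 3 macrophage genes measured here, Lyz2, Fcer1g and Tyrobp, were also higher, at 108 against 17.4 CPM summed, and their part in the class II levels was not tested.

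Timp1-leading members had more transcripts of single acute phase genes, of the metallothionein Mt1 and of fibroblast markers of more than 1 list. Of 8 acute phase genes, 3 were lower and 2 higher in Cxcl9-leading members. Lcn2 had 163 CPM in Cxcl9-leading against 703 CPM in Timp1-leading members (-2.10, -2.47 to -1.76), and Serpina3n 158 against 407 CPM (-1.36). Mt1 had 2235 against 5183 CPM (-1.21) and Mt2 3789 against 7077 CPM (-0.90, under 2-fold). Inmt had 183 against 871 CPM (-2.25), and 7 of 12 alveolar fibroblast markers (median -1.10), 5 of 11 adventitial markers (-0.92) and 3 of 15 pan-fibroblast markers (-0.47) were lower in Cxcl9-leading members, with none higher in any of these lists. Pan-fibroblast markers summed to 22372 CPM in Cxcl9-leading against 32468 CPM in Timp1-leading members. The chemokines Cxcl10 (9715 against 8645 CPM, 0.17) and Ccl2 (3824 against 5064 CPM, -0.41), and Cfb (394 against 496 CPM, -0.33) and Saa3 (3664 against 4924 CPM, -0.43), differed by less than 2-fold between these members. Rsad2 was lower in Cxcl9-leading members (194 against 468 CPM, -1.27), but rested on 14 and 15 barcodes.

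**Figure D4:**
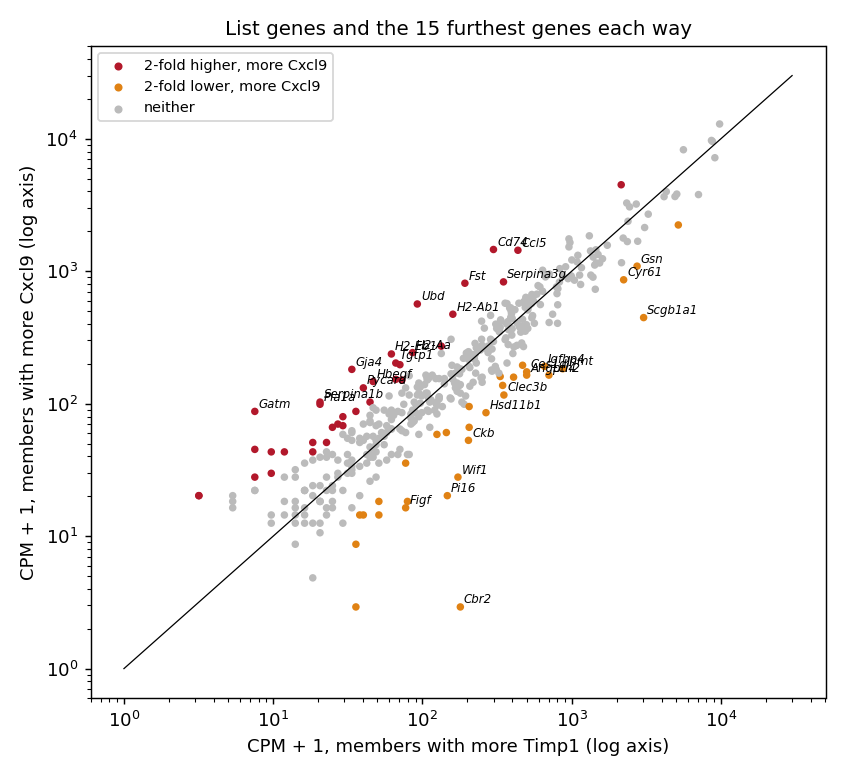
CPM plus 1 in Cxcl9-leading members (vertical, log axis) against Timp1-leading members (horizontal, log axis) for the list genes and the 15 genes furthest each way; the line marks equality, red genes are at least 2-fold higher and orange ones at least 2-fold lower in Cxcl9-leading members with an interval excluding equality. Cd74 and Ubd lie above the line, and Lcn2, Inmt and Scgb1a1 below it, the last with most of its UMIs in a single barcode.

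Some of the top genes were counted in a part of the members only. At least 3 UMIs of Saa3 were in 69 members, of Ccl5 in 46, of Fst in 39, of Lcn2 in 29, of Ubd in 26, of Rsad2 in 18 and of Spp1 in 11. Of the 29 members with Lcn2, 24 also had Saa3, where 69 of all 182 had it. Of the 11 with Spp1, 10 also had Fst, where 39 of 182 had it, and 2 had Saa3. Of the 26 with Ubd, 16 also had Ccl5, where 46 of 182 had it. Of the 46 with Ccl5, 20 also had Saa3. These counts were not adjusted for depth.

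Across 180 members thinned to equal depth, levels were correlated as a description of barcodes that share 1 library. Spearman's rho was 0.65 for Ccl2 with Ccl7, 0.56 for Ccl2 with Cxcl10 and 0.54 for Cxcl10 with the sum of GBP and IRG genes. It was 0.41 for Saa3 with C3. It was near 0 for Ccl2 with Saa3 (-0.01) and for Saa3 with the GBP and IRG sum (-0.03), and -0.40 for Cxcl10 with the pan-fibroblast sum.

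Clusters of all 793 niche mesenchymal barcodes, built without Cxcl9 and Timp1, placed the members mainly in 4 of 11. Cluster 1, led by Rsad2, Hp, Saa3, Ifit2 and Lcn2, held 69 members among its 103 barcodes (67.0%). Cluster 2, led by Lcn2, Saa3, Ces1d and Mgp, held 32 of 68, and its median Malat1 share was 0.05% of UMIs. Cluster 3, led by Enpp2, Lag3, Cilp, Tlr2 and Gbp2, held 32 of 69, and its barcodes had 10900 CPM of contractile genes, where those of cluster 1 had 3610 CPM. Cluster 4, led by Spp1, Fst and Hbegf, held 26 of 41, and 22 of these 26 led in Cxcl9. The clusters were left without cell type names.

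These 4 clusters differed in their sums over all their barcodes, given as a description. Chemokines summed to 24523 CPM in cluster 1, 8694 in cluster 2, 20520 in cluster 3 and 10723 in cluster 4. Acute phase genes summed to 10156, 9733, 1763 and 981 CPM and matrix genes of the provisional list to 10740, 9101, 8845 and 15219 CPM in the same order. Outside them, the cluster led by Slc7a10, Itga8 and Tcf21 held no member among 101 barcodes, that led by Pi16 and Entpd2 held 3 of 116, and that led by Cytl1, Aspn and Hhip held 7 of 131.

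**Figure D5:**
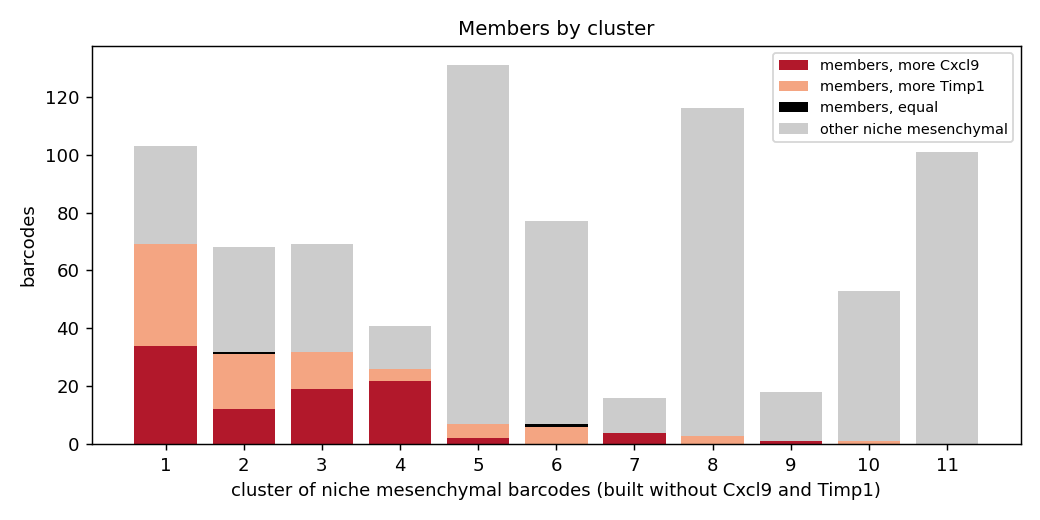
Number of barcodes in each of 11 clusters of niche mesenchymal barcodes, with members of more Cxcl9 (dark red), more Timp1 (light) or equal counts (black) at the base and other niche mesenchymal barcodes in grey. Clusters 1 to 4 hold 69, 32, 32 and 26 of the 182 members.

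Barcodes of low Malat1 were more frequent among members. A share of at most 1.18% of UMIs, which is the 25th percentile of niche mesenchymal barcodes, was found in 64 of 182 members (35.2%) and in 135 of 611 others (22.1%). Members of low Malat1 had a median of 3475 UMIs, against 6128 in the other members. Ccl2 had 2099 CPM in low-Malat1 members, against 5327 CPM in the other members (-1.34, -1.47 to -1.22), whereas Cfb had 603 against 371 CPM (0.70) and Saa3 4535 against 4088 CPM (0.15). Of 12 measured cell cycle genes, 5 were higher in low-Malat1 members, with a median of 0.67. Over all 7484 genes of this comparison, 132 (1.76%) were higher and 277 (3.7%) lower in low-Malat1 members. Without low-Malat1 barcodes in either set, 413 genes were higher and 673 lower in members than in the other niche mesenchymal barcodes.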

How the data were processed

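Per the labels' protocols, CD45- lung cells were run on Chromium Single Cell 3ʹ chemistry and sequenced on an Illumina instrument. The submitters' processing notes name Cell Ranger 2.1.1, R 3.4.1 and mm10, without their roles. The authors deposited raw UMI counts per gene and barcode, 1 table per library, with 5283584 niche and 4791701 distal UMIs over 10791 and 10814 listed genes. Every listed gene totalled at least 10 UMIs (niche) or 12 UMIs (distal), so an unlisted gene is not a 0. The filters removed 50 niche and 9 distal barcodes.

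Counts were summed per set (Python 3.11.15, numpy 2.4.6, pandas 2.3.3, scipy 1.17.1). Log2 ratios had 0.5 UMI added to each sum, and intervals are exact conditional binomial ones without it. The 12 genes of the rule were left out. Sums weight deep barcodes more, and levels of distal barcodes were scaled to the 10198 genes in both tables. Barcodes are not replicates, so no p-value was computed. Promoters and positions came from RefSeq (GRCm38.p6) and GENCODE vM21. Clusters used scanpy 1.11.5 with Leiden (leidenalg 0.10.2). Doublets, called by Scrublet, were kept. The ratios and intervals were tested on simulated sums with counting error only, without the variation between barcodes that these data have. There, 42% of genes with a true 2-fold ratio, 96% of those with a 4-fold ratio and 1.39% of unchanged genes passed the threshold.

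The text names 15 genes each way whose intervals ended furthest from equality (at least 30 UMIs), up to 4 per list, the given markers and genes needed to describe a list (not all of these are reported here). The members and the 22 gene and 18 marker lists were chosen with earlier results of these data known.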

Additional observations from a re-analysis of the deposited data

How the results depend on the processing

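Under 19 alternatives, the number of genes higher in members than in the other niche mesenchymal barcodes ran from 297 to 476 (362 as reported) and of genes lower from 463 to 930 (689 as reported). A minimum of 20 Cxcl9 and Timp1 UMIs left 114 members. Thinning to 1500 UMIs gave 809 genes lower against distal barcodes, where 1307 were reported, with 7058 genes then measured in place of 9335. Of 3115 values of 166 named genes under these alternatives, 12 changed direction. They were Fcer1g (0.0428 with at least 5 Cxcl9 and Timp1 UMIs, and 0.043 with at least 10 UMIs of the 5 collagen-rule genes), Sftpa1 (0.0404) and Sftpc (0.145) under that second minimum, and Cxcl5 (-0.26), Krt8 (0.187), Scgb1a1 (-0.0784) and Spp1 (-0.557) without low-Malat1 barcodes. With Timp1 alone at 10 or more UMIs, Flt1 was at -0.24. Of 3 alternatives chosen after seeing the data, leaving out the 18 barcodes of the cluster led by Sftpc and Pf4 gave Sftpa1 0.0823 and Sftpc 0.158, and leaving out each gene's highest barcode gave Scgb1a1 -0.0137. The cause was not tested. The median ratio ran from 1.28 to 1.70 for GBP and IRG genes, from 1.15 to 1.5 for antiviral genes, from 1.68 to 2.42 for acute phase genes, and from 0.22 to 1.49 for MHC class II genes, of which 0 to 6 were higher. Scrublet called 13 niche doublets, 3 of them members. No paired analysis was possible because each group had 1 library. With 1 library per group, differences between sets within the niche and between libraries had no replicate check, and genes of few UMIs were not resolved at this depth.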
